A study of Homo sapiens with 6 samples.

Results

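The genes described here encode the cytosolic chaperones and the heat shock machinery: the HSP70, HSP110, HSP90 and HSP40 (DNAJ) families, small heat shock proteins, the CCT chaperonin, BAG and other co-chaperones, and the heat shock factors HSF1 and HSF2. Not all are cytosolic: HSPA9, DNAJA3 and the HSPD1 and HSPE1 chaperonin are mitochondrial, and DNAJB14 belongs to the endoplasmic reticulum membrane. The genes were found by symbol, and all 49 listed genes were present among 58870 rows of the gene count table. HSPA14 stood on 2 rows, of which the one with the identifier ENSG00000187522 was used; the other is named MSANTD7 in GENCODE 44, and HSPB11 is named IFT25 there. The libraries were made from HEK-293T, an immortalized line from human embryonic kidney, grown in DMEM at 37 °C without any heat or other stress named in the labels. WT cells (genotype Thumpd+/+, 3 libraries) were compared with THUMPD1 KO cells (genotype Thumpd-/-, 3 libraries), in which CRISPR-Cas9 had been used to disrupt THUMPD1, the adaptor protein that NAT10 needs to acetylate cytidine in transfer RNA. The KO cells went through single-cell sorting, so differences that belong to a clone and differences that belong to the loss of THUMPD1 cannot be told apart. Nothing in the labels says that the 3 libraries of a genotype came from separate cultures, so p-values measure only the spread between these libraries.

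Chaperones bind unfolded stretches of protein and prevent their aggregation. HSP70 proteins do so in cycles of ATP hydrolysis, which HSP40 proteins start and the BAG and HSP110 proteins reset by exchanging nucleotide, and HSP90 with its co-chaperones takes over clients such as kinases and steroid receptors. CCT folds actin and tubulin in a closed chamber. When unfolded protein accumulates, HSF1 forms trimers, binds heat shock elements (inverted repeats of the unit GAA and its complement TTC) and drives transcription of HSPA1A, HSPA1B, HSPA8, DNAJB1 and many other genes of the set; their messages are commonly read as a sign of the heat shock response.

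Letters matching heat shock elements could be read in the promoters of several members, and a selection of the stretches is shown. The selection includes HSPA1B, HSPA8 and DNAJB1, the abundant genes that varied most between libraries of one genotype. HSPA1B and DNAJB1 hold only pairs of units, as do HSPB1 and HSPB8, whose stretches are not shown. Whether the letters bear on the variation was not tested. RefSeq promoter windows (GRCh38.p14, 300 bases, from 250 before to 50 after the start site) were at hand for 44 of the 49 genes, and were searched for a pair of units, GAANNTTC or TTCNNGAA, and for 3 units in a row, GAANNTTCNNGAA or TTCNNGAANNTTC. Each motif and its reverse complement are thereby covered, and every run of 3 contains overlapping pairs. A pair was found in 22 of the 44 genes (50%) and in 16.2% of all 27305 genes with a window. A run of 3 was found in 8 of the 44 (18.2%; HSPA6, HSPA8, HSP90AA1, HSP90AB1, HSPD1, DNAJA1, DNAJB6 and CHORDC1) and in 0.608% of all genes. Counted by window, since a gene can have several, the members' 63 windows held a pair in 36.5% and a run of 3 in 12.7%, against 13.5% and 0.49% of all 35116 windows. A match is a description of the letters and not evidence that HSF1 binds there. The stretches below are written 5′ to 3′ on the strand of the gene, and capitals mark each pair or run of 3 that the search found in the stretch. They lie at chr6:31815417-31815464 (plus strand, HSPA1A), chr6:31827613-31827660 (plus, HSPA1B), chr11:123062159-123062211 (minus, HSPA8), chr19:14518447-14518494 (minus, DNAJB1), chr14:102087100-102087152 (minus, HSP90AA1), chr6:44247811-44247863 (plus, HSP90AB1), chr2:197500048-197500090 (minus, HSPD1) and chr11:90223067-90223129 (minus, CHORDC1).
HSPA1A: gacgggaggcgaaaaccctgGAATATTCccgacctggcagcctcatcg
HSPA1B: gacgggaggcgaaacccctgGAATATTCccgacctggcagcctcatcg
HSPA8: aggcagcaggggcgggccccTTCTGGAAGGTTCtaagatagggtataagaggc
DNAJB1: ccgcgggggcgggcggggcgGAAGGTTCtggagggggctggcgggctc
HSP90AA1: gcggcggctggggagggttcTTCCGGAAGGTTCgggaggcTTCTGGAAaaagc
HSP90AB1: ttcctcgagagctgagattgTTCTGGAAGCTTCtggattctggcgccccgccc
HSPD1: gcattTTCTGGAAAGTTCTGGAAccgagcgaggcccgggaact
CHORDC1: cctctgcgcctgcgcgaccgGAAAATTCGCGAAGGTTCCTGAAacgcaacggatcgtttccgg

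The libraries held 32225646 to 44099898 expected counts assigned to genes, and the rows with a listed symbol, the MSANTD7 row included, took 1.35% to 1.65% of them. Levels are given as CPM, the expected count divided by the library's total and scaled by 1e6; 1 CPM stood for 32.2 to 44.1 read pairs. THUMPD1, the gene targeted, was counted at 77.3 to 84.6 CPM in WT and 10.2 to 12 CPM in KO, so the labels and the target go together (log2 fold change -2.87 ± 0.08 (SE), limma-voom with Benjamini-Hochberg adjustment over 15088 genes, adjusted p = 3.166e-08; the two-sided exact permutation p was 0.10, the smallest that 3 against 3 libraries can give). All 6 markers of HEK-293T and epithelial cells were above 1 CPM in every library, summing to 630.4 to 642.6 CPM in WT and 584.5 to 609.6 CPM in KO, whereas of 7 markers of mature kidney only LRP2 was, with UMOD, AQP2 and SLC34A1 at 0 in all libraries. Leukocyte markers summed to at most 1.48 CPM and endothelial markers to at most 0.217 CPM. Of 4 fibroblast markers COL1A1 and COL3A1 were above 1 CPM in every library and COL1A2 was at 0 in all, with sums of 14.7 to 19.6 CPM in WT and 11.6 to 16.5 CPM in KO; their part in the results was not tested. In bulk RNA, fewer cells of a type and less RNA per cell cannot be told apart.

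With genotype as the only term in the fit and the replicate number left out, few chaperone messages passed the test for a difference between the genotypes. This did not hold with the replicate number as a block, where 15 of 46 members were called beside 35.1% of all genes. Of the 49 genes, 46 passed the filter of at least 1 CPM in at least 3 libraries, and 7 of these 46 (15.2%) passed an adjusted p of 0.05 in the comparison of KO with WT by limma-voom; among all 15088 genes tested 26.7% did. HSPB8 and BAG1 were higher in KO, 2 of 46 members where 13.7% of all genes were higher; HSPB8 passed the filter only through the KO libraries, and with at least 1 CPM required in all 6 libraries 1 of 45 members was higher. HSPA12A, DNAJA3, CCT6A, HSF2 and ST13 were lower, 5 of 46 where 13.0% of all genes were lower. The log2 fold changes of the 46 members had a median of 0.0025, beside 0.0163 over all genes, with 23 above and 23 below zero. CPM values of KO and WT did not overlap for 12 of the 46 members, whereas they did not overlap for 42.2% of all genes.

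**Figure D1:**
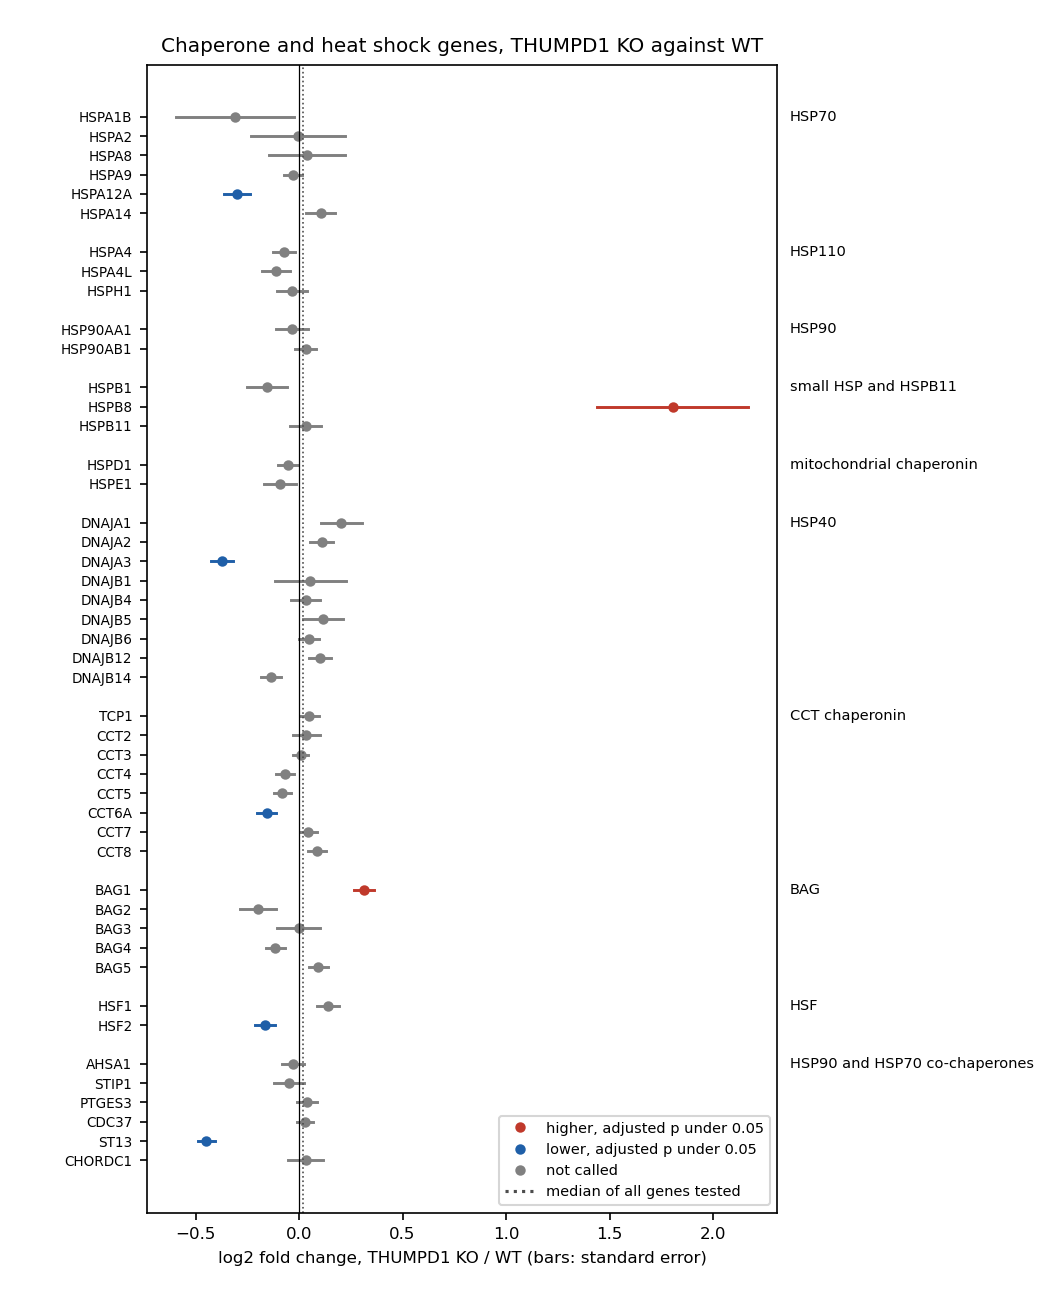
Log2 fold change of each of the 46 tested members between THUMPD1 KO and WT (horizontal axis), grouped by family, with bars for the standard error; red and blue points passed an adjusted p of 0.05 as higher or lower, grey points did not, and the dotted line is the median of all genes at 0.0163. Apart from HSPB8 at 1.80, the called members lie between -0.45 and 0.31, and the widest bars among the abundant genes belong to HSPA1B, HSPA8 and DNAJB1.

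How many members were called differed between settings. With the replicate number as a block, 15 of 46 were called, 5 higher and 10 lower, beside 35.1% of all genes. Without the WT library of replicate 1, 13 of 46 were called (28.1% of all genes), of which 10 were lower, whereas without the KO library of replicate 1 there were 6 calls. Leaving out both libraries of replicate 1, a choice made after seeing the data, gave 15 of 46 (32.4% of all genes), with 3 higher and 12 lower, and weighting the libraries by their quality also gave 15 (36.5% of all genes). With the block, with quality weights, and without the WT library or both libraries of replicate 1, the members' share called in either direction lay near that of all genes. All genes were not split into higher and lower under these settings. The higher and lower counts of members therefore have no share of all genes beside them. HSPA12A, DNAJA3, BAG1 and ST13 were called under each of the 17 alternatives tried.

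The HSP70 family holds the stress-inducible HSPA1A and HSPA1B, the constitutive HSPA8, the mitochondrial HSPA9 and the distant relative HSPA12A. HSPA1B (ENSG00000204388, chr6:31827738-31830254, plus strand) was counted at 363, 887 and 900.3 CPM in WT and 407, 562 and 631 CPM in KO. The replicate 1 library was the lowest of its genotype in each, and WT replicate 1 lay below every KO library while WT replicates 2 and 3 lay above every one. Its log2 fold change of -0.31 ± 0.29 (SE; 95% interval -0.97 to 0.35) had an adjusted p of 0.45 in limma-voom with Benjamini-Hochberg adjustment. With the replicate block it became a call (adjusted p = 0.042), and without both libraries of replicate 1 it stood at -0.54 (adjusted p = 1.0e-04). Leaving out 1 library at a time moved it from -0.73 without WT replicate 1 (adjusted p = 0.0041) to -0.10 without WT replicate 2 or 3 (adjusted p = 0.82 and 0.83) and -0.11 without KO replicate 1 (adjusted p = 0.83). KO over WT within a replicate number was 0.17 on the log2 scale for replicate 1, -0.66 for replicate 2 and -0.51 for replicate 3.

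HSPA8, which encodes the constitutive HSC70, was counted at 1074, 2021 and 1872 CPM in WT and at 1500, 1892 and 1789 CPM in KO. Replicate 1 was again the lowest library in both genotypes, and the groups overlapped. The log2 fold change was 0.04 ± 0.18 (SE; 95% interval -0.38 to 0.46). The sign did not hold across settings: without both libraries of replicate 1 the value was -0.15 with an adjusted p of 0.0044 in limma-voom, and without the WT one alone it was -0.24 (adjusted p = 0.036). It was also below zero without KO replicate 2 (-0.01) and with quality weights (-0.14), and stood at 0.13 without KO replicate 1 and 0.19 without WT replicate 2, none of these called.

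HSPA12A, an atypical HSP70 relative found mostly in brain, had the only HSP70 call. It was counted at 42.2, 36.2 and 37.8 CPM in WT and 33.4, 29.8 and 31.1 CPM in KO, so every KO library was below every WT library. By limma-voom its log2 fold change was -0.30 ± 0.06 (SE), with an adjusted p of 0.0062. Within this family HSPA14, which works at the ribosome, had the highest fold change of those tested, 0.10 ± 0.07 (SE), from 38.8, 43.1 and 42.2 CPM in WT and 42.0, 47.9 and 43.1 CPM in KO, and was not called (adjusted p = 0.30). HSPA9 ranged from 471 to 509 CPM over the 6 libraries, and the testis-enriched HSPA2 from 2.61 to 4.80 CPM.

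Both HSPA1A and HSPA6 stayed below the filter. HSPA1A was given 13, 57.1 and 39.4 expected counts in WT and 18.0, 14.3 and 23.8 in KO, although HSPA1B is among the most abundant of the set. The genes are close to identical copies that both respond to heat. Of the stretches of 100 bases in the HSPA1A transcript, 69.5% also occur in that of HSPA1B, and 93.6% of aligned columns in the 250 bases upstream are identical, so how reads were divided between them is uncertain; with their counts summed, 7 members were called as before. HSPA6, a strictly heat-inducible HSP70, was given 5 to 21 counts per library.

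The HSP110 proteins act as exchange factors for HSP70. HSPA4L had the lowest fold change of the 3, from 142, 169 and 171 CPM in WT and 141, 155 and 152 CPM in KO (log2 fold change -0.11 ± 0.07 (SE), adjusted p = 0.25 in limma-voom). HSPH1, with the highest at -0.04 ± 0.07 (SE), was counted at 294, 354 and 348 CPM in WT and 294, 338 and 342 CPM in KO. Replicate 1 was lowest in both genotypes for HSPA4, HSPA4L and HSPH1, and none was called. HSPA4L was called lower without WT replicate 1 (-0.20, adjusted p = 0.012 in limma-voom), without both libraries of replicate 1 (-0.16, adjusted p = 0.0087) and with quality weights (-0.16, adjusted p = 0.020).

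Per kilobase of exon, with all annotated exons of a gene merged, the cytosolic HSP90 genes HSP90AB1 (482 CPM per kb, mean of 6 libraries) and HSP90AA1 (414 CPM per kb) were the most abundant of the set, followed by HSPA8 (349 CPM per kb) and HSPA1B (248 CPM per kb). This order depends on the exon lengths: by CPM alone it was HSP90AA1, HSPA8 and then HSP90AB1. HSP90AA1, the more heat-responsive of the HSP90 pair, was counted at 1856, 2187 and 2186 CPM in WT and 1938, 2291 and 2212 CPM in KO. The constitutive HSP90AB1 was counted at 1347, 1490 and 1496 CPM in WT and 1341, 1467 and 1476 CPM in KO. Their log2 fold changes, -0.03 ± 0.08 and 0.03 ± 0.05 (SE), were not called, and both signs flipped when libraries were scaled by TMM or by their totals.

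Small heat shock proteins hold unfolded proteins without using ATP. HSPB8, which works with BAG3 in clearing misfolded proteins, was counted at only 0.688, 0.332 and 0.456 CPM in WT and 1.93, 1.20 and 1.46 CPM in KO, from 13 to 29 counts per WT library and 47 to 75 per KO library. Every KO library was above every WT library (log2 fold change 1.80 ± 0.37 (SE), limma-voom adjusted p = 0.0047). It passed the expression filter through the KO libraries alone, so this gene could not have been tested without a difference. HSPB1 (HSP27) was counted at 35.7, 29.4 and 31.5 CPM in WT and 34.1, 25.5 and 27.6 CPM in KO, with the groups overlapping and replicate 1 highest in both (log2 fold change -0.16 ± 0.10 (SE), adjusted p = 0.25; 0.046 with the replicate block). HSPB11, placed here by its symbol alone and named IFT25 in GENCODE 44, had 0.03 ± 0.08 (SE) and ranged from 25.5 to 30.0 CPM.

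The chaperonin of the mitochondrial matrix, HSPD1 with its lid HSPE1, is expressed from neighbouring genes that start head to head. HSPD1 was counted at 962, 1082 and 1056 CPM in WT and 951, 1019 and 973 CPM in KO. HSPE1 was counted at 161, 196 and 199.7 CPM in WT and 165, 185 and 173 CPM in KO. Their log2 fold changes were -0.05 ± 0.05 and -0.09 ± 0.08 (SE), neither called. HSPE1 was called lower in limma-voom without the WT library of replicate 1 (-0.19, adjusted p = 0.015). It was also called lower without both libraries of replicate 1 (-0.15, adjusted p = 0.017) and with quality weights (-0.16, adjusted p = 0.033).

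HSP40 proteins deliver clients to HSP70 and stimulate its ATPase. DNAJA3, the mitochondrial HSP40 of the set (ENSG00000103423, chr16:4425805-4456775, plus strand), was counted at 112, 112 and 112 CPM in WT and at 81.2, 88.8 and 92.8 CPM in KO. No KO library reached the WT level, and the SD was 0.244 CPM in WT and 5.89 CPM in KO (n = 3 each). The log2 fold change of -0.37 ± 0.05 (SE) had an adjusted p of 5.9e-04 in limma-voom. Genes around it were lower as well: of 173 tested genes within 5 Mb, 129 were called lower and 1 higher, with a median log2 fold change of -0.39, and DNAJA3 was at percentile 52.6 among them.

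DNAJA1, a cytosolic partner of HSPA8, had the highest fold change of the HSP40 genes, 0.20 ± 0.10 (SE), from 231, 313 and 298 CPM in WT and 295, 342 and 325 CPM in KO. The groups overlapped only through KO replicate 1, and the gene was not called (adjusted p = 0.15 in limma-voom), but was with the replicate block (adjusted p = 0.011). DNAJA2 behaved likewise, from 101 to 113 CPM in WT and 112 to 120 CPM in KO (log2 fold change 0.11 ± 0.06 (SE), adjusted p = 0.17, and 0.046 with the block). DNAJB1, the heat-inducible HSP40 that also represses HSF1, was counted at 66.1, 112 and 109 CPM in WT and 85.4, 99.3 and 107 CPM in KO, overlapping, with a log2 fold change of 0.05 ± 0.17 (SE). DNAJB14 of the endoplasmic reticulum membrane was lower in each KO library, at 53.6 to 56.8 CPM against 59.6 to 63.7 CPM (log2 fold change -0.13 ± 0.05 (SE), adjusted p = 0.057 in limma-voom, and 0.033 with the block). DNAJB4, DNAJB5, DNAJB6 and DNAJB12 had log2 fold changes of 0.03 to 0.11 and were not called, although DNAJB12 was called higher without WT replicate 1 (0.15, adjusted p = 0.046 in limma-voom). DNAJA4 had a single count in 1 of the 6 libraries and was not tested.

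The 8 subunits of CCT are assembled in equal numbers into a double ring, and 7 of the 8 kept fold changes that were not called, from -0.08 for CCT5 to 0.09 for CCT8. CCT6A was called lower, at 400.1, 458 and 452 CPM in WT and 393, 419 and 399 CPM in KO. WT replicate 1 lay among the KO libraries, so that the groups overlapped (log2 fold change -0.16 ± 0.05 (SE), limma-voom adjusted p = 0.032). That call was lost in 9 of 17 alternatives, among them edgeR, DESeq2 and scaling by TMM. CCT8 was counted at 288, 307 and 310.1 CPM in WT and 323, 328 and 320.2 CPM in KO without overlap, but did not pass the test (adjusted p = 0.16). CCT4, at -0.07 ± 0.04 (SE), was called lower without both libraries of replicate 1 (-0.11, adjusted p = 0.028 in limma-voom) and with quality weights (adjusted p = 0.037).

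BAG proteins release substrate from HSP70. BAG1 (ENSG00000107262, chr9:33247820-33264720, minus strand) was counted at 38.2, 37.6 and 38.7 CPM in WT and 49.2, 46.3 and 47.1 CPM in KO, each KO library being above each WT library. KO exceeded WT by 0.31 ± 0.05 on the log2 scale (SE), with an adjusted p of 8.5e-04 in limma-voom. BAG2, an inhibitor of the ligase CHIP, had the lowest fold change of the family, from 37.4, 43.0 and 44.4 CPM in WT and 33.1, 39.0 and 36.6 CPM in KO (-0.20 ± 0.09 (SE), adjusted p = 0.11, and 0.010 with the block). BAG4 and BAG5 did not overlap between genotypes, lower and higher in KO, and were not called (adjusted p = 0.083 and 0.16); BAG4 was with the block (adjusted p = 0.044). BAG3, an HSF1 target, was counted at 32.6, 42.0 and 41.5 CPM in WT and 35.4, 38.1 and 42.2 CPM in KO, with a log2 fold change of -0.002 ± 0.10 (SE).

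Of the transcription factors themselves, HSF2 was called lower and HSF1 was not called. HSF2, which modulates HSF1 and acts in development, was counted at 69.5, 71.7 and 70.2 CPM in WT and 61.9, 64.8 and 61.3 CPM in KO, without overlap (log2 fold change -0.17 ± 0.05 (SE), limma-voom adjusted p = 0.023). The call was lost without WT replicate 2 or 3, without KO replicate 1 or 3, and without the CPM filter. HSF1 was counted at 69.0, 68.6 and 68.9 CPM in WT and 75.4, 71.7 and 80.7 CPM in KO, each KO library being higher (log2 fold change 0.14 ± 0.05 (SE), adjusted p = 0.067, and 0.029 with the block).

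Of the remaining co-chaperones of HSP90 and HSP70, only ST13 was called. ST13 (Hip, ENSG00000100380, chr22:40824535-40856639, minus strand), which stabilizes HSP70 in its ADP-bound form, was counted at 336, 353 and 355 CPM in WT and 267, 252 and 255 CPM in KO. KO libraries averaged 74.2% of WT, and the groups were far apart relative to their SDs of 10.2 and 7.97 CPM (n = 3 each). In limma-voom the log2 fold change of -0.45 ± 0.04 (SE) had an adjusted p of 4.5e-05. As for DNAJA3, its surroundings were lower too: among 137 tested genes within 5 Mb 88 were called lower and 1 higher, with a median of -0.31, and ST13 was at percentile 22.6. The neighbours of BAG1, HSF2, HSPB8, HSPA12A and CCT6A had medians between -0.03 and 0.04. STIP1, PTGES3, AHSA1, CDC37 and CHORDC1 had log2 fold changes of -0.05 to 0.04 and were not called. PTGES3 (p23), the highest of these, was counted at 453, 501 and 517 CPM in WT and 494, 498 and 515 CPM in KO.

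**Figure D2:**
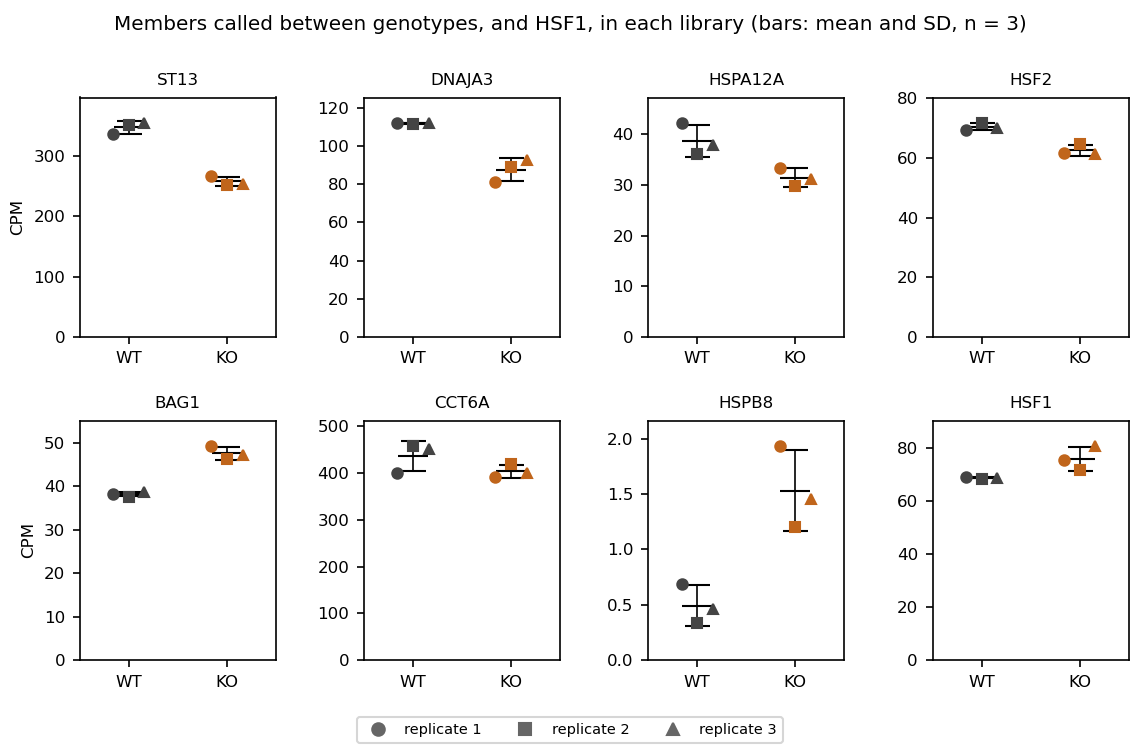
CPM (vertical axes, starting at 0) of the 7 called members and of HSF1 in the 3 WT and 3 KO libraries, with symbols for the replicate number and bars for the mean and SD (n = 3). KO and WT do not overlap for ST13, DNAJA3, HSPA12A, HSF2, BAG1, HSPB8 or HSF1, whereas CCT6A in WT replicate 1, at 400.1 CPM, lies among its KO values.

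Replicate 1 stood apart from replicates 2 and 3 for many of the heat shock genes. In both genotypes replicate 1 was the lowest of the 3 libraries for 29 of 46 members (63.0%), and for 11.9% of all genes tested. It was so for both HSP90 genes, all 3 HSP110 genes, HSPD1 and HSPE1, 7 of 8 CCT subunits, 4 of 5 BAG genes, 4 of 6 co-chaperones, 4 of 9 HSP40 genes and 3 of 6 HSP70 genes, and for neither HSF1 nor HSF2. The median member stood in replicate 1 at 90.8% of the mean of replicates 2 and 3 in WT and at 96.0% in KO, whereas the median of all genes was 103% and 102%. The labels give no batch, date or treatment for replicate 1, and no test was made of this pattern, which was known when the genes were chosen.

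The depth of the dip differed between genes and genotypes. HSPA1B in replicate 1 was at 40.6% of the other libraries in WT and 68.3% in KO, rank 14 and 131 from the lowest of 15088 genes. HSPA8 was at 55.2% in WT and 81.5% in KO. DNAJB1 stood at 59.8% and 82.9%, and DNAJA1 at 75.6% and 88.4%. BAG3, CHORDC1, HSPE1, HSPH1 and STIP1 were between 78.0% and 84.3% in WT and between 86.1% and 91.8% in KO. For each of the genes just named the dip was deeper in WT than in KO, and that difference rests on 1 library per genotype and was not tested. It did not hold for every member that was lowest in replicate 1 in both genotypes. DNAJB6 (94.97% in WT and 90.66% in KO), BAG4 (98.72% and 93.89%) and BAG5 (97.35% and 96.83%) went the other way. HSPA2 was low in WT replicate 1 (63.6%) but not in KO replicate 1 (102%).

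**Figure D3:**
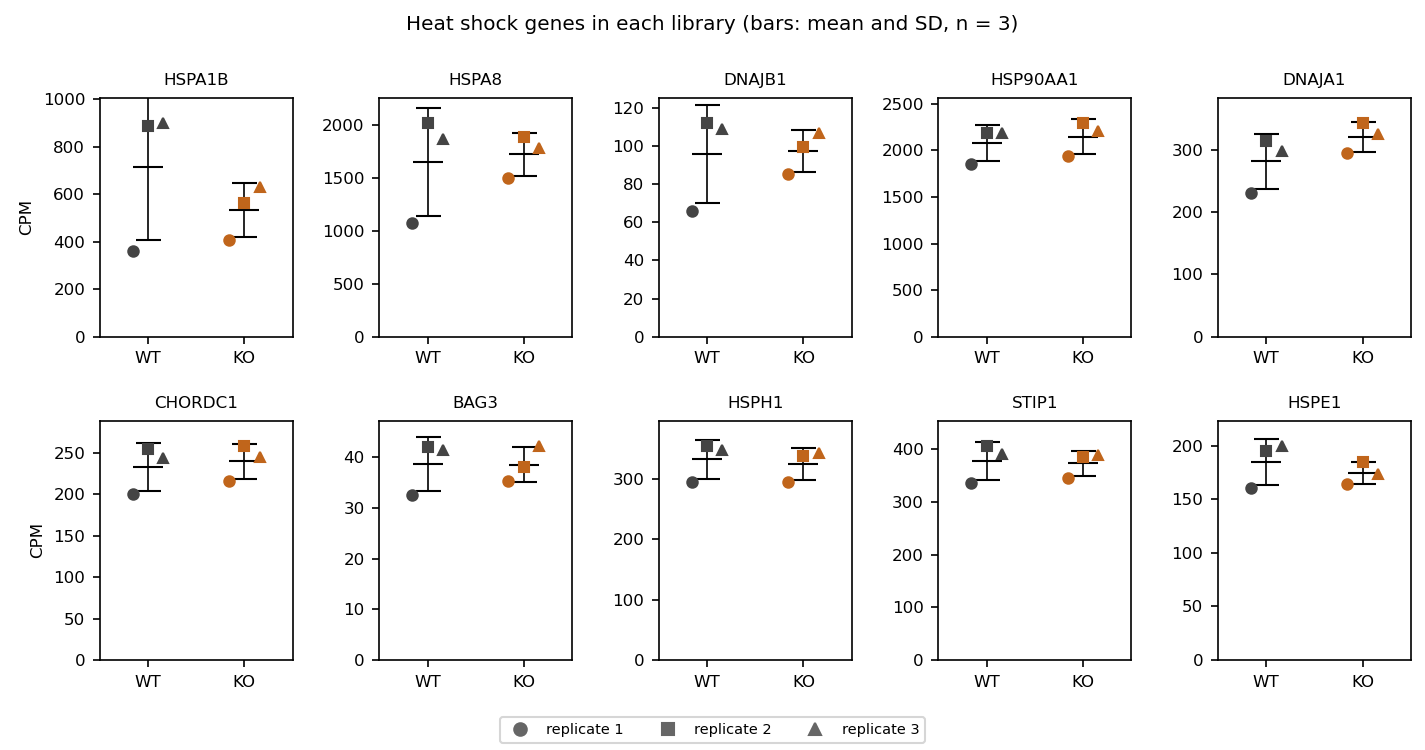
CPM (vertical axes, starting at 0) of 10 heat shock genes in the 3 WT and 3 KO libraries, with symbols for the replicate number and bars for the mean and SD (n = 3). The genes shown are all among the 29 of 46 members with replicate 1 lowest in both genotypes. The replicate 1 library, drawn as a circle, is therefore the lowest of its genotype in every panel. This is most marked for HSPA1B, where it is at 363 CPM in WT and 407 CPM in KO.

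A few members went the other way. HSPB8 in replicate 1 was at 175% of the other WT libraries and 145% of the other KO libraries, HSPB1 at 117% and 129%, and HSPA12A at 114% and 110%. Summed over families, HSP70 messages came to 2008, 3503 and 3343 CPM in WT and 2458, 3039 and 2978 CPM in KO, and HSP90 messages to 3203, 3677 and 3682 CPM in WT and 3279, 3758 and 3688 CPM in KO. The 2 heat shock factors together held at 137 to 142 CPM in all 6 libraries. Mitochondrially encoded genes, a rough guide to library quality, took 3.25% of counts in WT replicate 1, beside 3.01% and 2.81% in WT replicates 2 and 3. In KO they took 3.11% in replicate 1, beside 3.32% and 3.1% in replicates 2 and 3. Whether library quality bears on the dip was not tested.

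**Figure D4:**
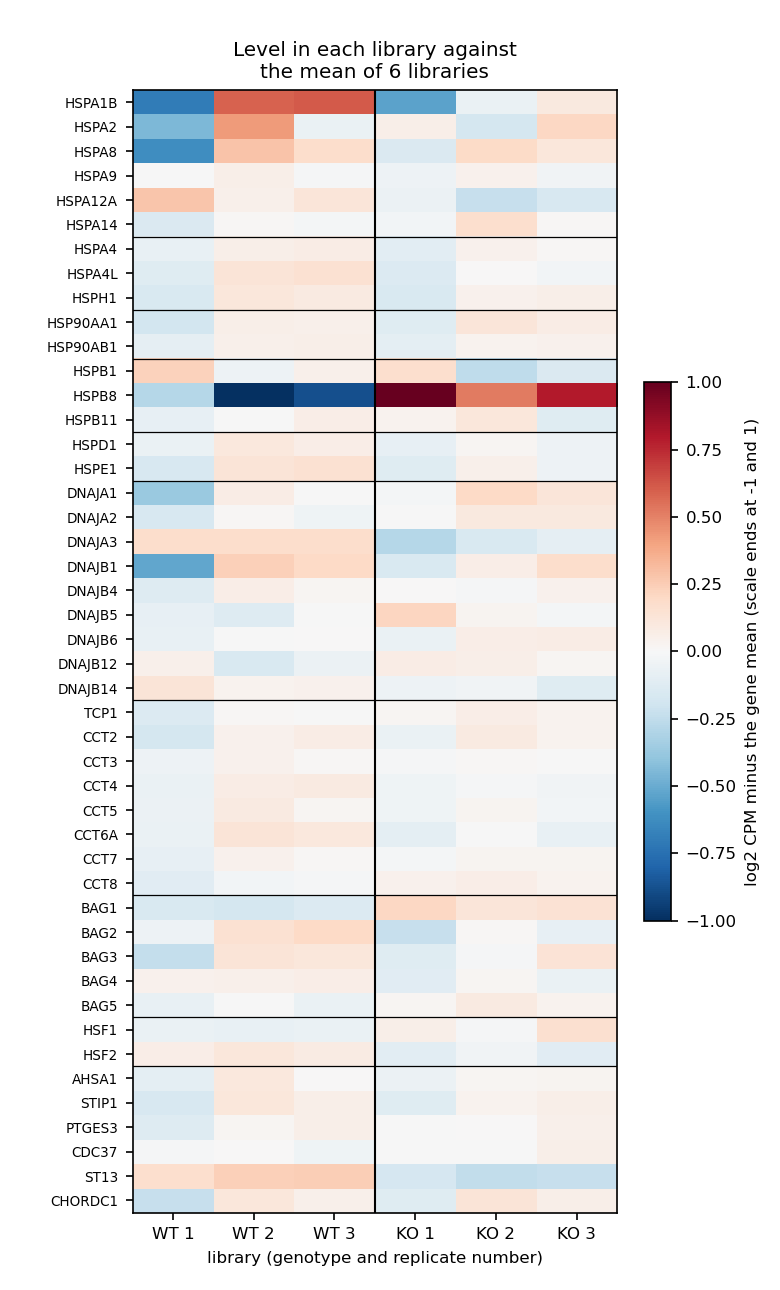
Log2 CPM of the 46 tested members in each library minus the mean of the gene over 6 libraries, from blue (below) to red (above), with lines between families and between genotypes. The WT 1 column is blue for most chaperones, deepest for HSPA1B, HSPA8 and DNAJB1, the KO 1 column is paler, and HSPB8, ST13, DNAJA3 and BAG1 differ between the WT and the KO columns.

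Replicate 1 was also set beside the promoter letters, as a description. All 7 tested members with a run of 3 units were lowest there in both genotypes, with medians of 84.9% of the other libraries in WT and 88.4% in KO. With genotype as the only term none of these 7 was called, where 26.7% of all genes were. By limma-voom DNAJA1 was called with the replicate block (adjusted p = 0.011) and HSPA8 without both libraries of replicate 1 (adjusted p = 0.0044). For the 12 with a pair only the medians were 87.2% and 93.9% (8 lowest in both), and for the 22 with neither 93.2% and 97.6% (11 lowest in both). The classes overlapped widely: HSPA1B and DNAJB1, with the pairs printed above, were among the lowest, while HSPB1 and HSPB8, which also hold a pair, were the highest. These are counts over genes that share the same 6 libraries and were chosen with the replicate 1 pattern known, and no test was made. Of all genes tested, 11.9% were lowest in replicate 1 in both genotypes. Genes outside the set were not sorted by their promoter letters, so the counts cannot tie the letters to the dip.

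**Figure D5:**
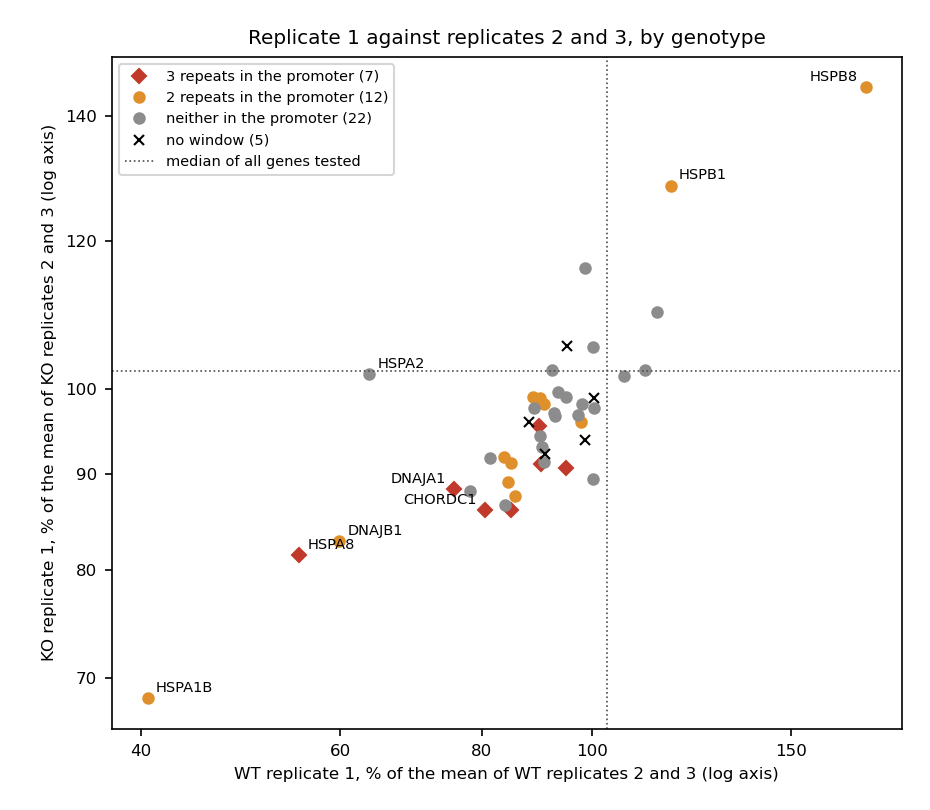
Level of each tested member in replicate 1 as a percentage of the mean of replicates 2 and 3, in WT (horizontal) and KO (vertical), on log axes; red diamonds hold a run of 3 heat shock units in the promoter window, orange circles a pair, grey circles neither, and crosses had no window, while dotted lines mark the medians of all genes (103% and 102%). Most members lie below and to the left of the dotted lines, with HSPA1B at 40.6% and 68.3%, and HSPB8 lies farthest above them at 175% and 145%.

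Other genes of the pathway, from 6 lists of 77 genes, gave 17 calls among 66 tested (25.8%), 9 higher and 8 lower, near the 26.7% of all genes; with the replicate block there were 26, without KO replicate 2 there were 8, and without KO replicate 3 there were 11. Among 11 tested HSF1 targets outside the set 2 were called. IER5, an HSF1 cofactor, rose from 39.1 to 39.7 CPM in WT to 48.5 to 51.7 CPM in KO (log2 fold change 0.35 ± 0.05 (SE), limma-voom adjusted p = 7.2e-04), and the autophagy receptor SQSTM1 fell from 88.8 to 89.6 CPM to 80 to 84.8 CPM (-0.13 ± 0.04, adjusted p = 0.045, called under only 9 of the 17 alternatives). Among the other HSP40 genes 7 of 20 were called, led by DNAJC6 (auxilin; -0.55 ± 0.06 (SE)), DNAJB2 (-0.62 ± 0.09) and DNAJC24 (0.25 ± 0.05).

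Of 16 other cytosolic co-chaperones 3 were called. STUB1, the ubiquitin ligase CHIP that acts on HSP70 clients, was counted at 72.4, 75.5 and 74.9 CPM in WT and 50.9, 49.1 and 54.0 CPM in KO (log2 fold change -0.54 ± 0.05 (SE), limma-voom adjusted p = 4.5e-05), and the nucleotide exchange factor HSPBP1 and SGTA had 0.19 ± 0.05 and 0.14 ± 0.05 (SE), the latter called under only 6 of the 17 alternatives. In the mitochondrial list 3 of 10 were called, all lower, where 26.7% of all genes were called and 13.0% were lower: TRAP1, the HSP90 of mitochondria (-0.51 ± 0.04 (SE), adjusted p = 1.1e-05), GRPEL2 (-0.23 ± 0.07) and CLPX (-0.14 ± 0.05). GRPEL2 was called under 13 of the 17 alternatives, falling to -0.14 without WT replicate 1 (adjusted p = 0.055), and CLPX under 11, with the call lost in 5 of the 6 fits that left out 1 library. STUB1 and TRAP1 are on chromosome 16 within 5 Mb of DNAJA3. PFDN1, a prefoldin subunit, was the 1 call among 9 prefoldin and CCT helper genes (0.24 ± 0.05 (SE)), and HSBP1, which binds HSF1 trimers, the 1 among 2 tested small heat shock protein and heat shock factor genes (0.19 ± 0.05). Replicate 1 was the lowest library in both genotypes for 13 of the 66 (19.7%), among them 5 of the 11 HSF1 targets, and JMJD6 stood there at 69.6% of the other libraries in WT and 90.1% in KO.

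Several members share sequence or reads with other genes. Pseudogenes named after 19 of the members, 110 in all, held 0.164% of the counts summed with their parents, and adding them left 7 members called. HSPA8, HSPA9, TCP1 and CCT6A carry small nucleolar RNA genes in their introns, and SPINK4 overlaps BAG1 on the opposite strand. The kit kept strand, but the setting used in counting is not given in the sources used here, so reads of such overlapping genes may be mixed.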

How the data were processed

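Total RNA of HEK-293T WT and THUMPD1 KO cells (3 libraries each) was depleted of ribosomal RNA, made into stranded paired-end libraries and sequenced on a NovaSeq. The authors aligned reads with STAR to GRCh38 (hg38 per the labels), estimated expected counts per gene with RSEM and deposited them as one table; versions are not given in the sources used here. The members and gene lists were chosen with earlier results of these data known. Totals over all genes were 32225646 to 44099898 expected counts, and precision follows from counting error and the spread of 3 libraries.

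The 15088 genes that reached 1 CPM (counts per library total, scaled by 1e6) in 3 or more libraries were quantile normalized and tested by limma-voom (limma 3.58.1, R 4.3.3) with genotype as the only term; the study's methods name a filter at 1 CPM, quantile normalization and limma-voom, and the 3-library rule and the model term were chosen here. P-values were adjusted by Benjamini-Hochberg over all 15088 genes, with a threshold of 0.05. Alternatives were TMM or plain library sizes, edgeR 4.0.16 and DESeq2 1.42.0 on rounded counts, 2 other filters, quality weights, a replicate block, each library left out, HSPA1A and HSPA1B summed, pseudogene counts added and, chosen after seeing the data, both libraries of replicate 1 left out. All members may be named: those called and those with the lowest and highest fold change of a family are given per library, and from each other list at most the 3 called genes with the smallest adjusted p. The replicate numbers come from the sample titles; deviations of same-numbered libraries from their genotype means correlated at 0.193, 0.166 and 0.143 over 15088 genes, those of differently numbered ones at -0.166 to 0.0357, so the numbers were taken to pair the libraries. The tests were tested on simulated data. Gene positions are from GENCODE 44, which held 99.3% of the identifiers of the table; promoter windows are from RefSeq (GRCh38.p14).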

Additional observations from a re-analysis of the deposited data

How the results depend on the processing

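The count of 7 called members moved by over 1.5 times to 15 with the replicate block, to 15 with quality weights and to 15 without both libraries of replicate 1; leaving out each library in turn gave 5 to 13. The median log2 fold change of the member genes, 0.0025, became -0.0561 with quality weights and -0.0556 without both libraries of replicate 1, and ranged from -0.0836 to 0.0348 over single libraries left out, with -0.0836 without WT replicate 1. Among the other lists, 17 calls became 10 without the CPM filter, 26 with the replicate block and 8 to 17 with single libraries left out (21 without both libraries of replicate 1). The cause was not tested. Under the other alternatives these values stayed within 1.5 times or within their spread, and the fold change of THUMPD1 stayed between -2.96 and -2.79. The replicate block took away none of the 7 or the 17 calls. Low counts limit HSPA1A, HSPA6, DNAJA4 and HSPB8.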
